A study of Homo sapiens with 30 samples.

Results

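The comparison described here was the dose step of SGI-1776-VHL-02, 3750 nM against 1500 nM, in PC3 cells after 48 h of treatment. Its libraries were taken by their labels, but the comparison was chosen with earlier results of these data known. In the series 12 of the 30 libraries carry these 2 treatments, 6 at each dose. At each dose 3 are labelled Rep 1 and 3 Rep 2. PC3 is an established human prostate cancer cell line without functional p53. SGI-1776 inhibits the PIM kinases, and SGI-1776-VHL-02 is a PROTAC named for it and for the VHL ubiquitin ligase. The study set inhibition of PIM kinases against their degradation, and the other groups were the solvent DMSO and SGI-1776 at the same 2 doses, with 6 libraries each. All libraries were made from poly-A selected RNA of this cell line, so the results describe 1 line in culture. Whether the libraries of a Rep stem from separate cultures is not in the labels, so p-values measure the spread between these libraries, which may in part be technical.

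PIM kinases are constitutively active serine/threonine kinases that act downstream of cytokine receptors and favour survival, protein synthesis and cell cycle entry. A PROTAC holds a target-binding part and a part that binds a ubiquitin ligase, and brings them together so that the target is ubiquitinated and degraded by the proteasome. Several of the genes described below belong to the integrated stress response. In it, kinases that sense uncharged tRNA, unfolded protein, haem shortage or other stress slow general translation while the transcription factor ATF4 is translated, and ATF4 turns on genes for amino acid synthesis, amino acid uptake and tRNA charging.

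Levels are given as CPM, a gene's count scaled to a fixed library size. Changes are given as log2 fold changes of 3750 over 1500 nM with their standard error, and a gene rose or fell where edgeR's quasi-likelihood test gave an adjusted p under 0.05 over the 17499 genes tested. Of these genes 1616 (9.23%) rose and 1704 (9.74%) fell, and the median log2 fold change of all tested genes was 0.02. Most changes were small: 49 genes rose and 11 fell by at least 2-fold. All 6 libraries at 3750 nM lay above all 6 at 1500 nM for 818 genes (4.67%) and below them for 921 genes (5.26%). With Rep as a block the counts were 2596 higher and 2516 lower. With the 3 libraries of a dose and Rep added up to 1 sample, 77 genes rose and 59 fell without the block, and 2100 rose and 1900 fell with it. RNA-seq of a culture cannot tell fewer cells of a kind from less RNA per cell.

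The 12 libraries held 23506366 to 48968707 counts. Mitochondrially encoded genes took 2.00 to 3.18% of the counts in Rep 1 at 1500 nM and 2.37 to 2.89% in Rep 1 at 3750 nM. In Rep 2 they took 0.296, 0.326 and 1.5% at 1500 nM and 1.14 to 1.66% at 3750 nM. Where leaving out the libraries under 0.5% moved a list's count by over 1.5 times, both counts are given. Of the genes named below as risen or fallen, up to the closing section, 13 no longer passed without those libraries, though none changed sign. These were AKR1B10, ATF5, CDKN1B, DUSP10, HARS, LAMA4, LAMB3, LDHA, MCM2, NEDD8, PSMB9, RARS and TGFBI. The epithelial keratins KRT8, KRT18 and KRT19 were abundant in every one of the 12 libraries, the lowest value being 269.5 CPM for KRT18, and the prostate secretory gene KLK3 was at 0. The summed level of 12 leukocyte markers ran from 1.19 to 1.95 CPM at 1500 nM and from 1.43 to 2.12 CPM at 3750 nM. That of 12 fibroblast and endothelial markers ran from 20 to 23.7 CPM and from 18.0 to 24.9 CPM, mostly from COL3A1, PECAM1 and KDR, with DCN, THY1 and CDH5 at 0 or near it.

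The transcripts of the drug's targets moved little. PIM1, the family member best known as a cytokine-induced gene (chromosome 6, 37170203 to 37175426, plus strand), was at 32.3 to 34.3 CPM (median 33.2) at 1500 nM and at 36.8 to 45.1 CPM (median 41.2) at 3750 nM. The groups did not overlap, and PIM1 rose by 0.30 ± 0.04 on the log2 scale (adjusted p = 8.37e-06), by 0.39 in Rep 1 and 0.21 in Rep 2. PIM2 was at 25.2 to 31.4 CPM (median 29.4) and 24.5 to 29.3 CPM (median 26.0), and PIM3 at 46.2 to 56.6 CPM (median 52.1) and 49.8 to 52.8 CPM (median 50.8); both overlapped between the doses. Neither passed the test, with 95% intervals of the log2 fold change of -0.21 to 0.00 for PIM2 and -0.12 to 0.07 for PIM3. VHL, the substrate receptor of the ligase that the PROTAC is named for (chromosome 3, 10141008 to 10152220, plus strand), was at 97.6 to 109.8 CPM (median 103) and 111 to 121 CPM (median 116). Its groups did not overlap either, and it rose by 0.17 ± 0.04 (adjusted p = 0.00225). NEDD8, the modifier that activates cullin ligases, fell by 0.14, and the other members of the 9-gene VHL ligase list did not pass; with Rep as a block 4 of the 9 fell, and without the libraries of under 0.5% mitochondrial counts none did while VHL still rose. RNA levels carry no information on the amount of PIM protein.

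**Figure D1:**
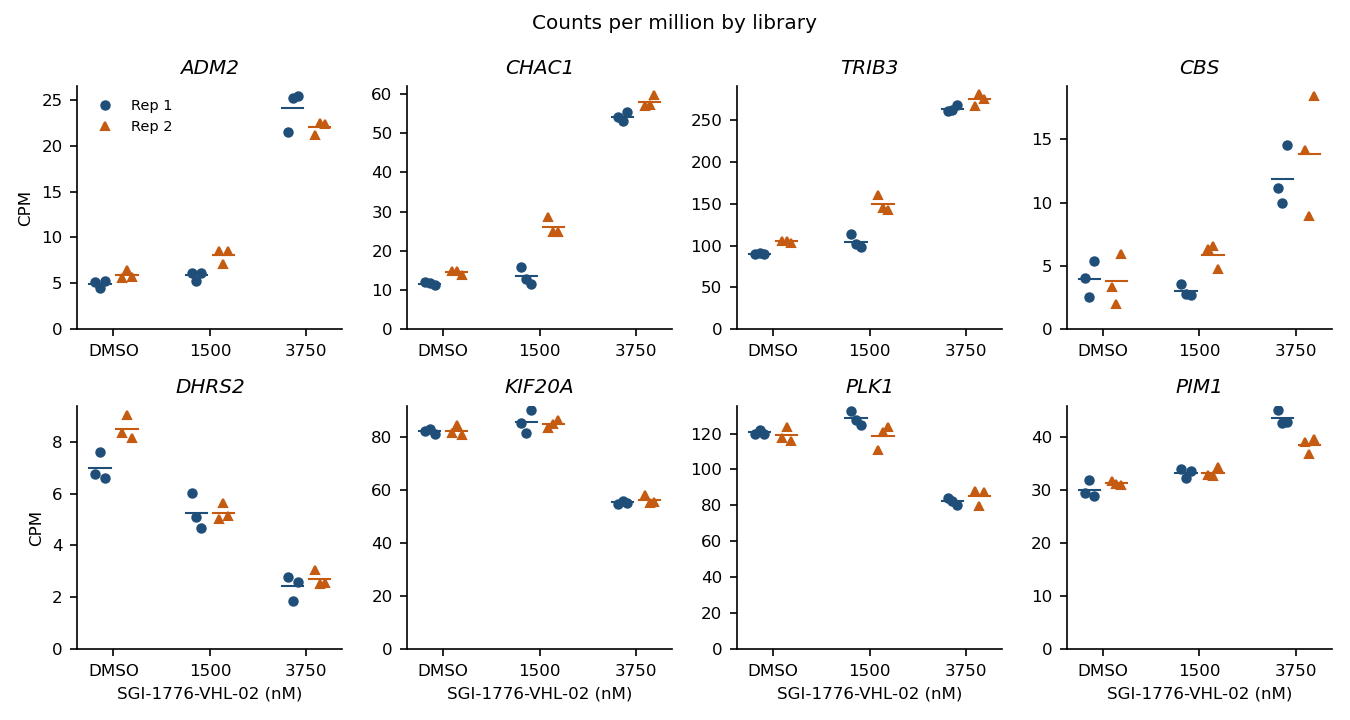
CPM (linear axes from 0) of 8 genes in DMSO and at 1500 and 3750 nM SGI-1776-VHL-02; circles are the 3 libraries of Rep 1, triangles those of Rep 2, and short lines their means. ADM2, CHAC1, TRIB3 and CBS are highest at 3750 nM in both Reps, and DHRS2, KIF20A and PLK1 are lowest there. PIM1 lies at 36.8 to 45.1 CPM at 3750 nM, above every library at 1500 nM.

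Genes of the ATF4 response rose, with the highest median of the 37 gene lists examined. Of 30 listed regulators and amino acid synthesis genes 29 were tested, 26 rose, 2 fell, and the median log2 fold change was 0.72 (1616 of all 17499 tested genes, or 9.23%, rose, with a median of 0.02). For 24 of the 29 every library at 3750 nM lay above every library at 1500 nM, against 4.67% of all tested genes. Without the libraries of under 0.5% mitochondrial counts 26 rose and 1 fell, with a median of 0.81; after summing per Rep, 13 rose without the block and 26 with it. The mean of 23 of the 26 rose in order from DMSO through 1500 nM to 3750 nM, although the means at DMSO and 1500 nM were often close; no test against DMSO was made here.

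ATF4 itself rose by 0.66 ± 0.06, and DDIT3, which encodes the stress factor CHOP, by 0.72 ± 0.09. DDIT3 overlaps the synthetase gene MARS, and reads over both cannot be told apart. JDP2, an AP-1 repressor that binds similar sites (chromosome 14, 75427716 to 75474111, plus strand), was at 4.94 to 6.59 CPM (median 5.91) at 1500 nM and 12.2 to 15.6 CPM (median 14.1) at 3750 nM. It rose by 1.26 ± 0.10 (adjusted p = 1.07e-10) with no overlap. NUPR1, a small stress-induced chromatin protein (chromosome 16, 28532708 to 28539174, minus strand), was at 17.7 to 29.3 CPM (median 22.4) and 58.8 to 69.2 CPM (median 61.8), a rise of 1.47 ± 0.11. The bZIP partners CEBPG, CEBPB and ATF3 rose by 0.52, 0.45 and 0.44. ATF5, which overlaps IL4I1 and NUP62 on the genome, fell by 0.17 (adjusted p = 0.0374), with overlapping libraries.

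Feedback genes of the response rose as well. CHAC1, which breaks down glutathione and is a standard reporter of ATF4 activity (chromosome 15, 40952962 to 40956519, plus strand), was at 13.1 ± 1.62 CPM (SD, n = 6) in DMSO, 11.6 to 28.5 CPM (median 20.4) at 1500 nM and 53 to 59.6 CPM (median 56.1) at 3750 nM. Its libraries at 1500 nM split by Rep, at 11.6 to 15.9 CPM in Rep 1 and 24.9 to 28.5 CPM in Rep 2, whereas all 6 at 3750 nM lay within 53 to 59.6 CPM. CHAC1 rose by 1.5 ± 0.15 (adjusted p = 8.22e-09). TRIB3, a pseudokinase that inhibits ATF4 and AKT (chromosome 20, 362835 to 397559, plus strand), was at 98.0 to 161 CPM (median 128) and 260.5 to 281 CPM (median 268) and rose by 1.08 ± 0.08 (adjusted p = 5.49e-11). PPP1R15A, the phosphatase subunit GADD34 that ends the translation block, rose by 0.46 ± 0.07.

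The mTORC1 brakes SESN2 and DDIT4 rose to a like degree. SESN2, a leucine sensor that restrains mTORC1 (chromosome 1, 28259527 to 28282491, plus strand), was at 13.4 to 20.1 CPM (median 16.7) and 29.4 to 37.3 CPM (median 35.6), a rise of 1.08 ± 0.09. DDIT4, also called REDD1 (chromosome 10, 72273920 to 72276036, plus strand), was at 8.56 to 17.9 CPM (median 12.4) and 25.8 to 28.8 CPM (median 27.7), a rise of 1.12 ± 0.12. Neither gene's libraries overlapped between doses. DDIT4 overlaps its antisense gene DDIT4-AS1 on the genome and PLK1 overlaps ERN2, and reads over such pairs cannot be told apart here.

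Secreted members included the gene with the largest rise of those named. ADM2, a peptide hormone of the adrenomedullin family (chromosome 22, 50481556 to 50486440, plus strand), was at 5.43 ± 0.650 CPM (SD, n = 6) in DMSO, 5.26 to 8.55 CPM (median 6.64) at 1500 nM and 21.2 to 25.4 CPM (median 22.4) at 3750 nM. It rose by 1.72 ± 0.09, or 3.30-fold (adjusted p = 1.2e-14). GDF15, a stress cytokine that acts on appetite, rose by 0.83 ± 0.12, and STC2, a glycoprotein hormone, by 0.80 ± 0.07.

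Genes of amino acid synthesis rose across serine, asparagine and cysteine pathways. PHGDH, the first enzyme of serine synthesis (chromosome 1, 119648411 to 119744226, plus strand), was at 158 to 215 CPM (median 187) and 346 to 390.1 CPM (median 369), with no overlap, and rose by 0.98 ± 0.06 (adjusted p = 1.84e-13). The next enzymes of that pathway, PSAT1 and PSPH, rose by 0.97 and 0.43, and the mitochondrial folate enzymes SHMT2 and MTHFD2 by 0.52 and 0.58. PCK2, mitochondrial phosphoenolpyruvate carboxykinase, rose by 1.00. ASNS, asparagine synthetase, had a low count, at 1.21 to 2.00 CPM (median 1.86) and 3.73 to 6.10 CPM (median 4.63), and rose by 1.46 ± 0.18. Whether reads shared with other annotated genes lower the count of ASNS was not tested. CBS, which starts the transsulfuration route to cysteine (chromosome 21, 43053191 to 43076943, minus strand), was at 2.71 to 6.55 CPM (median 4.20) and 8.95 to 18.4 CPM (median 12.7). It rose by 1.53 ± 0.24 (adjusted p = 2.48e-05), and its level is uncertain because a near-identical copy of the gene in GRCh38 can take part of its reads. The next enzyme, CTH, rose by 0.32. The proline enzymes moved apart: PYCR1 rose by 0.32 and ALDH18A1 fell by 0.20. ALDH1L2, at 1.30 to 1.91 CPM (median 1.57) at 1500 nM, had a log2 fold change of -0.01 ± 0.14 and did not pass.

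**Figure D2:**
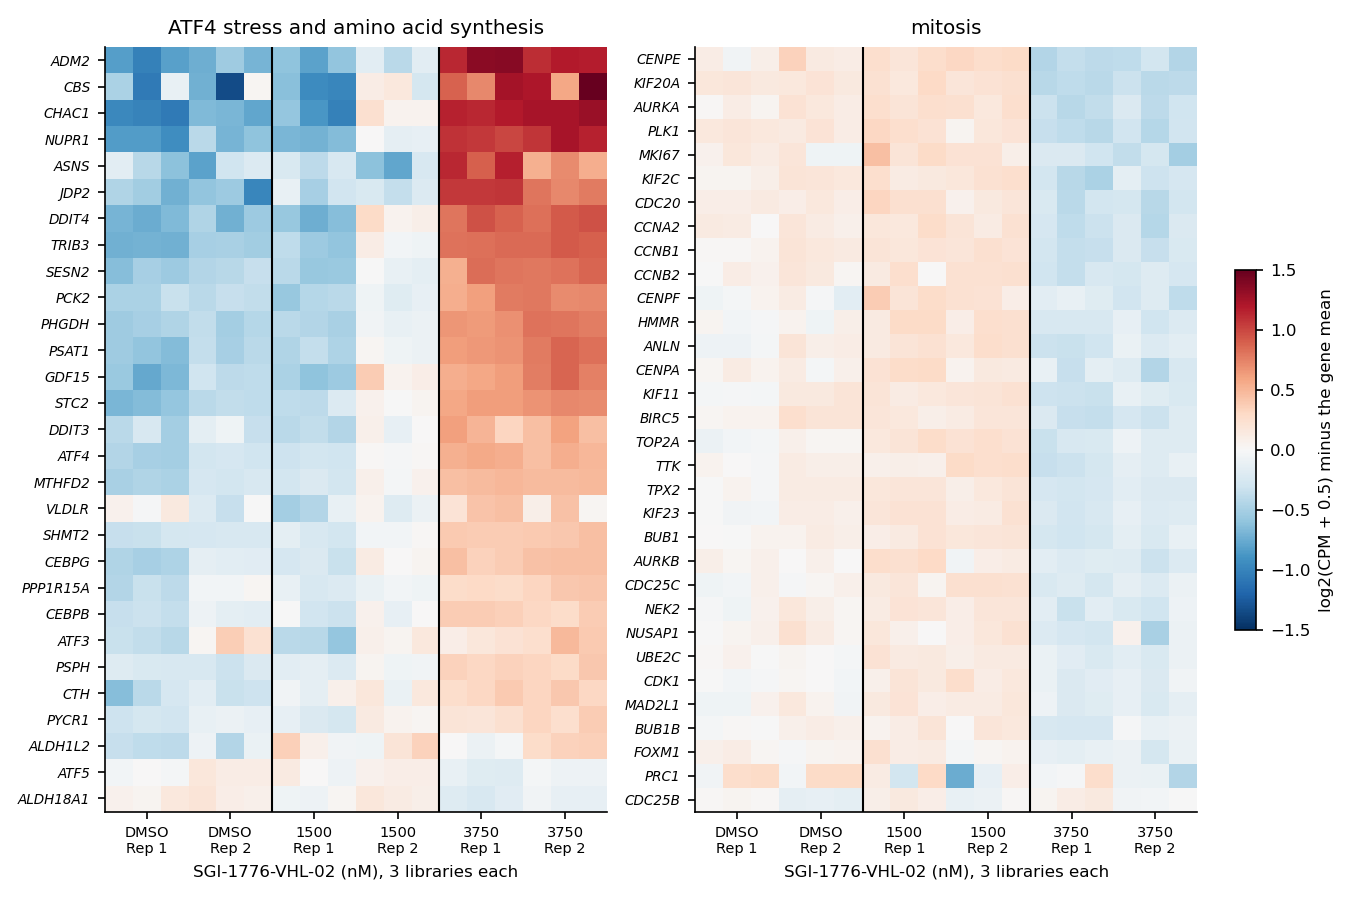
Log2(CPM + 0.5) of each tested gene of the ATF4 list (left) and the mitosis list (right), less the gene's mean over the 18 libraries shown, in DMSO and at both doses of SGI-1776-VHL-02, with 3 libraries per column block; genes are ordered by dose-step log2 fold change. The ATF4 genes are red at 3750 nM and mostly blue in DMSO and in Rep 1 at 1500 nM, and the mitosis genes are blue at 3750 nM only.

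Amino acid transporters followed. Of 16 tested, 10 rose and 1 fell, with a median log2 fold change of 0.43. SLC3A2, the heavy chain shared by several exchangers, was at 141 to 167 CPM (median 163) and 281 to 301 CPM (median 294) and rose by 0.88 ± 0.04 (adjusted p = 1.36e-15). Its light chains SLC7A5, which carries leucine, and SLC7A11, which brings in cystine, rose by 0.77 ± 0.04 and 0.81 ± 0.13. SLC7A5 was at 225 to 292 CPM (median 271) and 444 to 467 CPM (median 452), with no overlap. SLC6A9, a glycine carrier, SLC1A5 and SLC1A4, carriers of neutral amino acids, and SLC7A1, a carrier of basic ones, rose by 0.76, 0.71, 0.70 and 0.51. SLC36A4 fell by 0.24.

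The cytosolic aminoacyl-tRNA synthetases divided. Of 20, 12 rose and 6 fell, with a median of 0.24, and for the 12 that rose the doses did not overlap. GARS, the glycine enzyme (chromosome 7, 30594681 to 30634033, plus strand), was at 185 to 243 CPM (median 217) and 309.7 to 346 CPM (median 325) and rose by 0.60 ± 0.06 (adjusted p = 4.56e-09). CARS, YARS and MARS, for cysteine, tyrosine and methionine, rose by 0.55 ± 0.06, 0.53 ± 0.05 and 0.52 ± 0.03, and AARS, SARS, EPRS, WARS, IARS, TARS, NARS and LARS by 0.15 to 0.49. The enzymes for phenylalanine (FARSA and FARSB), lysine (KARS), valine (VARS), arginine (RARS) and histidine (HARS) fell by 0.09 to 0.22. KARS was at 157 to 166 CPM (median 161) and 136 to 143 CPM (median 138), and fell by 0.21 ± 0.03. Leaving out the libraries of under 0.5% mitochondrial counts left 12 higher and 4 lower. After summing per Rep without the block 1 rose and none fell (2415 of all genes had an unadjusted p under 0.05 in that fit), and with the block 12 rose and 5 fell.

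The promoters of these genes were read for the C/EBP-ATF response element, the composite site that ATF4 binds with a C/EBP partner, written as TGATGNAAN and searched on both strands from 250 bases before to 50 bases after each RefSeq start. The 250 bases before the start are shown for 3 of the members that hold it there, with the match in capitals, 5′ to 3′ on the gene's strand (RefSeq, GRCh38.p14). CHAC1 lies at chr15:40953221-40953470 on the plus strand, JDP2 at chr14:75427772-75428021 on the plus strand and GARS at chr7:30594628-30594877 on the plus strand.
CHAC1: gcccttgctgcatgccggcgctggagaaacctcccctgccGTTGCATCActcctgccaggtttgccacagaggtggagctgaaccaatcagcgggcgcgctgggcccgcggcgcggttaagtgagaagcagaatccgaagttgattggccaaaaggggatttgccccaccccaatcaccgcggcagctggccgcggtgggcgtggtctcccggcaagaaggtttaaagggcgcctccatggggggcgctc
JDP2: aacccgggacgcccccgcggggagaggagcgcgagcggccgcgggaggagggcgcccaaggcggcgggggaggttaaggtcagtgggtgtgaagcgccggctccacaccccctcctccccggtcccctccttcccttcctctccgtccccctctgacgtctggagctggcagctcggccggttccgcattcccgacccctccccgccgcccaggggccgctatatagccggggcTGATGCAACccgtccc
GARS: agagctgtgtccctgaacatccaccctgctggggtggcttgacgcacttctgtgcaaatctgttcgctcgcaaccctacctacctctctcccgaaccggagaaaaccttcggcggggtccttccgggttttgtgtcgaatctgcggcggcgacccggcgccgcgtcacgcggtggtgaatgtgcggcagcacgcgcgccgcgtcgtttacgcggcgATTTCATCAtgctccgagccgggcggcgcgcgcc
The match begins 210 bases before the start in CHAC1, on the opposite strand, 16 bases before it in JDP2 and 34 bases before it in GARS, on the opposite strand. With any listed start of a gene counted, the motif was found in 5 of 24 matched ATF4 list members (20.8%), 5 of 15 transporters (33.3%) and 6 of 14 synthetases (42.9%), against 4.45% of all 27305 genes with a promoter and 2.87% of the 11791 of them that were tested. All 16 genes of the 3 lists with the motif rose: ATF3, CEBPG, CHAC1, ASNS, JDP2, SLC3A2, SLC7A1, SLC1A4, SLC1A5, SLC38A1, AARS, CARS, GARS, IARS, NARS and TARS. Of the 37 list members without it 24 rose and 8 fell. Of all tested genes with a promoter, 64 of the 338 with the motif rose (18.9%) and 34 fell (10.1%), and 1135 of the 11453 without it rose (9.91%) and 1368 fell (11.9%). A match describes letters in these windows and shows no binding.

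Mitosis genes fell, with the lowest median of the 37 lists. Of 32 tested, none rose and 30 fell, with a median log2 fold change of -0.43, and for 29 every library at 3750 nM lay below every library at 1500 nM (5.26% of all tested genes). The same 30 genes fell in Rep 1 and in Rep 2 taken alone, and 30 fell without the libraries of under 0.5% mitochondrial counts. Summing per Rep left 14 without the block and 30 with it. For all 30 the mean at 1500 nM was above that in DMSO and the mean at 3750 nM below it. CENPE, a kinetochore motor (chromosome 4, 103105806 to 103198409, minus strand), was at 56.8 ± 5.24 CPM (SD, n = 6) in DMSO, 59.0 to 64.3 CPM (median 62.5) at 1500 nM and 38.1 to 43.0 CPM (median 39.6) at 3750 nM, and fell by 0.64 ± 0.06 (adjusted p = 2.28e-09).

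KIF20A, the cytokinesis motor MKLP2 (chromosome 5, 138178719 to 138187715, plus strand), was at 82.1 ± 1.34 CPM (SD, n = 6) in DMSO, 81.3 to 89.9 CPM (median 85.1) at 1500 nM and 54.8 to 58.2 CPM (median 55.2) at 3750 nM. It fell by 0.61 ± 0.03 (adjusted p = 3.69e-15), and it overlaps CDC23 on the genome. The mitotic kinases AURKA and PLK1 fell by 0.56 and 0.56. PLK1 (chromosome 16, 23677656 to 23690367, plus strand) was at 111 to 133 CPM (median 124) at 1500 nM and 79.6 to 87.9 CPM (median 83.4) at 3750 nM, again without overlap. The proliferation antigen MKI67, the anaphase activator CDC20 and the cyclins CCNA2, CCNB1 and CCNB2 fell by 0.46 to 0.56. FAM83D, a spindle protein outside the list (chromosome 20, 38926312 to 38953106, plus strand), was at 97.4 to 114 CPM (median 101) and 64.3 to 72.6 CPM (median 68.5) and fell by 0.58. Those that did not pass were PRC1 and the phosphatase CDC25B. PRC1 had few counts, at 0.395 to 1.35 CPM (median 0.998) and 0.608 to 1.30 CPM (median 0.938), and its log2 fold change was -0.01 ± 0.22. Whether reads shared with other annotated genes lower its count was not tested, so PRC1 cannot be read as spared by the dose. CDC25B was at 259.5 to 309 CPM (median 289.7) and 269 to 309 CPM (median 282), with 0.00 ± 0.05.

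Mitotic promoters commonly hold a cell cycle homology region, a site of the DREAM complex that silences them outside G2 and M, near CCAAT boxes bound by NF-Y. They were searched on both strands for TTTGAA and CCAAT, and the 250 bases before the start of 2 named members are shown, with both motifs in capitals. PLK1 lies at chr16:23678639-23678888 and KIF20A at chr5:138178862-138179111, both on the plus strand.
PLK1: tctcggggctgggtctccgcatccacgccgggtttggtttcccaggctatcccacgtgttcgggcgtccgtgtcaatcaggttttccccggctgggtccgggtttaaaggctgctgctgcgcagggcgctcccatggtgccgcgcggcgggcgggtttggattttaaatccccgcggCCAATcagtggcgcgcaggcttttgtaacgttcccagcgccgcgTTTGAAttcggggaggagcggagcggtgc
KIF20A: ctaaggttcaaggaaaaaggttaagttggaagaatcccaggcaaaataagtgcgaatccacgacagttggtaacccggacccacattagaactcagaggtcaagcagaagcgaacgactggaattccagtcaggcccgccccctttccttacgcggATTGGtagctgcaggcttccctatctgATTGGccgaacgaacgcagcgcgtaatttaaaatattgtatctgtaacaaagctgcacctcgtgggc
In PLK1 TTTGAA begins 29 bases and CCAAT 73 bases before the start, and KIF20A holds 2 CCAAT boxes on the opposite strand, 94 and 67 bases before its start. TTTGAA was found in 17 of 26 matched list members (65.4%), in 18.2% of all genes with a promoter and in 13.8% of those tested, and CCAAT in 22 of 26 (84.6%), in 39.7% and in 42.4%.

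DNA replication and G1/S genes fell less. Of 32 tested none rose and 23 fell, with a median of -0.17; in Rep 2 alone 14 fell and in Rep 1 alone 23, and 18 fell without the libraries of under 0.5% mitochondrial counts. After summing per Rep without the block 1 fell, and with it 22. TK1, the thymidine salvage kinase, was at 314 to 359.7 CPM (median 345) and 238 to 279 CPM (median 256) and fell by 0.41 ± 0.05. TYMS, which makes thymidylate, fell by 0.40, and the ribonucleotide reductase subunits RRM2 and RRM1 by 0.37 and 0.28. The replicative helicase subunits MCM2, MCM3, MCM4, MCM5 and MCM7 fell by 0.08 to 0.19. The E2F-type motif TTTGGCG was found in 10 of 28 matched members (35.7%), in 2.32% of all genes with a promoter and in 3.62% of those tested, and TTTCGCG in 7 (25%), in 1.6% and in 2.75%.

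Among CDK inhibitors and G1 cyclins 2 of 12 rose and 5 fell, and 2 rose and 2 fell without the libraries of under 0.5% mitochondrial counts. CDKN2B, the INK4 inhibitor p15 (chromosome 9, 22002903 to 22009363, minus strand), was at 27.4 to 35.4 CPM (median 29.9) at 1500 nM and 47.1 to 49.7 CPM (median 47.5) at 3750 nM, and rose by 0.65 ± 0.05 (adjusted p = 1.41e-10). It overlaps the antisense gene CDKN2B-AS1, and without a known strand setting their reads cannot be told apart. CDKN1A, or p21, rose by 0.39 ± 0.12 with overlapping libraries. CDKN2C, CCND3 and CDKN1B fell by 0.35, 0.27 and 0.13.

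**Figure D3:**
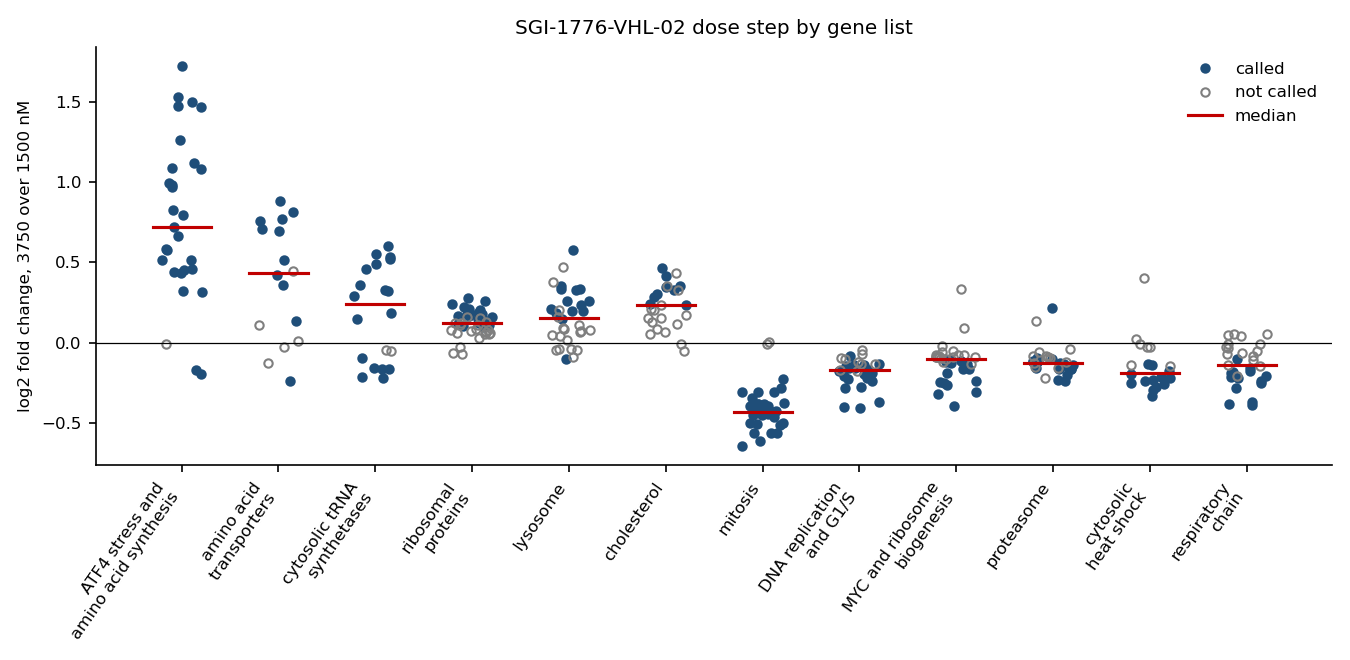
Log2 fold change of SGI-1776-VHL-02, 3750 over 1500 nM, for the tested members of 12 gene lists; filled points passed the test (adjusted p under 0.05), open points did not, and red lines are medians. The ATF4, transporter and synthetase lists reach the highest values, up to 1.72, and the mitosis list has the lowest median, -0.43.

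Genes of growth and protein folding fell by small amounts. Of 34 genes of MYC and ribosome biogenesis 15 fell and none rose, and with the block 23 fell and 1 rose. They were led by the mitochondrial chaperone HSPD1, which was at 776 to 813 CPM (median 803) and 579 to 629 CPM (median 610.1) and fell by 0.39 ± 0.03 (adjusted p = 1.43e-10). SRM, the polyamine enzyme spermidine synthase, fell by 0.32. HSPE1 shares its promoter with HSPD1, overlaps it, and fell by 0.30. Of 20 cytosolic heat shock genes 13 fell and none rose. HSP90AA1, the inducible HSP90, was at 2463 to 2681 CPM (median 2634) and 1978 to 2111 CPM (median 2070.1) and fell by 0.33, and the chaperonin subunits TCP1 and CCT2 fell by 0.29 and 0.28.

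Of 32 proteasome genes 18 fell and 1 rose, by a median of -0.12, and without the libraries of under 0.5% mitochondrial counts 7 fell and 1 rose. PSMD2, a subunit of the regulatory particle, fell by 0.24, while NFE2L1, the factor that induces proteasome genes, rose by 0.22 ± 0.04. Of 19 glycolysis genes 8 fell, among them PKM by 0.23 and LDHA by 0.21, and ENO2 rose by 0.12; without the libraries of under 0.5% mitochondrial counts 4 fell and 1 rose.

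Of 30 nuclear genes of the respiratory chain 14 fell and none rose, with a median of -0.14. UQCRFS1 of complex III, NDUFS1 of complex I and ATP5F1A of ATP synthase fell by 0.39, 0.38 and 0.37; ATP5F1A was at 488 to 563 CPM (median 521) and 377 to 433 CPM (median 406). None of the 13 mitochondrially encoded genes passed edgeR's test without the block, 1 passed with it, and 10 passed after summing per Rep with it. Their median log2 fold change was 0.00 in Rep 1 and 0.89 in Rep 2, where 2 libraries at 1500 nM held under 0.5% of such counts. Cytosolic ribosomal proteins went the other way: 20 of 40 rose and none fell, with a median of 0.12, led by RPS18 at 0.28 and RPL13A at 0.26. Ribosomal protein genes have many processed copies, so reads can be shared.

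Lysosome, autophagy and sterol genes rose in part. Of 32 lysosome genes 13 rose and 1 fell (none without the libraries of under 0.5% mitochondrial counts), with a median of 0.16. TPP1, a lysosomal peptidase (chromosome 11, 6612763 to 6619485, minus strand), was at 60.2 to 69.5 CPM (median 64.1) and 90.3 to 102 CPM (median 96.1), did not overlap, and rose by 0.58 ± 0.05 (adjusted p = 1.54e-09). NPC1, which exports cholesterol from the lysosome, and the protease CTSD rose by 0.35 and 0.34. Of 24 autophagy genes 9 rose and none fell, and with the block 12 rose and 1 fell. SQSTM1, the cargo receptor p62, was at 244 to 297 CPM (median 283) and 389.7 to 433 CPM (median 415) and rose by 0.59 ± 0.06, and OPTN, another receptor, and ULK1, the initiating kinase, rose by 0.34 and 0.27.

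Of 25 genes of cholesterol synthesis and uptake 9 rose and none fell, with a median of 0.23; with Rep as a block 20 rose, and 14 did once the libraries of under 0.5% mitochondrial counts were left out. Of 15 fatty acid synthesis genes ACSS2, ELOVL6 and ACACA rose by 0.30, 0.30 and 0.24, and with the block 7 rose.

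Of 25 targets of FOXO factors, which AKT keeps out of the nucleus, 11 rose and 1 fell. DEPP1, PIK3IP1, TP53INP1 and GADD45A rose by 0.53, 0.51, 0.49 and 0.40, and CDKN1B fell. Of 23 genes known as p53 targets 7 rose and 1 fell, and with the block 8 and 2, in a line without functional p53. SESN2, BBC3 and GDF15 rose most, and SESN2 and GDF15 are also on the ATF4 list. Of 16 BCL2 family genes 5 rose and none fell (6 and 1 with the block), and 4 of the 5 encode BH3-only proteins, which promote cell death. BBC3, or PUMA, was low, at 1.11 to 1.95 CPM (median 1.37) and 2.00 to 2.97 CPM (median 2.76), and rose by 0.87 ± 0.16. PMAIP1, or NOXA, was at 27.3 to 35.6 CPM (median 30.2) and 39.4 to 46.1 CPM (median 41.5) and rose by 0.45 ± 0.06 (adjusted p = 1.25e-06), and BIK and BMF rose by 0.56 and 0.49.

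Signalling and stress lists moved in part, beside 9.23% of all tested genes that rose and 9.74% that fell. Of 23 ER chaperone and unfolded protein response genes 5 rose and none fell. With the block 10 rose, and 9 did without the libraries of under 0.5% mitochondrial counts. DNAJB9, ERN1, which encodes the sensor IRE1, HERPUD1 and XBP1 rose by 0.61, 0.47, 0.39 and 0.24. Of 25 NRF2 target and iron genes 6 rose and 3 fell: haem oxygenase HMOX1, at 12.2 to 15.3 CPM (median 14.5) and 20 to 23.3 CPM (median 22.1), rose by 0.64 ± 0.06, and ferritin heavy chain FTH1 by 0.35, while AKR1B10 and TKT were among those that fell, by 0.45 and 0.19. Of 21 hypoxia and HIF targets 5 rose and 1 fell; VEGFA, at 73.8 to 120.1 CPM (median 94.2) and 123 to 169.9 CPM (median 149), rose by 0.65 ± 0.12, NDRG1 by 0.50 and MXI1 by 0.31, and CA12 fell by 0.28. With the block 8 of these genes rose and 2 fell, and once the libraries of under 0.5% mitochondrial counts were left out, 8 rose and 1 fell.

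Of 23 NF-kB targets and cytokines 5 rose and 1 fell, and with the block 12 rose and 3 fell. TNFAIP3, the NF-kB inhibitor A20 (chromosome 6, 137867188 to 137883312, plus strand), was at 10.1 to 15.9 CPM (median 12.4) and 22.2 to 26.9 CPM (median 23.4) and rose by 0.93 ± 0.18 (adjusted p = 0.000237). The siderophore carrier LCN2 and the cytokine LIF rose by 0.51 and 0.41, and IL11 fell by 0.35. Of 33 interferon response genes 2 rose and 6 fell, and with the block 5 rose and 8 fell. Among all 17499 tested genes 9.23% rose and 9.74% fell, and with the block 2596 rose and 2516 fell. GBP4 and OASL fell by 0.56 and 0.50, PSMB9 by 0.34, and ISG20 rose by 0.32.

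Counts were small in the remaining lists. Beside them, 9.23% of all 17499 tested genes rose and 9.74% fell, and with the block 2596 rose and 2516 fell. Without the block the JAK/STAT and MAPK lists were near those shares. Of 8 JAK/STAT feedback genes SOCS2 rose by 0.57 and SOCS1 fell by 0.43; with the block 3 rose and 2 fell. Of 19 AP-1 and immediate early genes 3 rose, led by KLF4 at 0.49, and with the block 5 rose and 1 fell. Of 18 MAPK feedback genes SPRY2 and DUSP10 rose and ETV4 and SPRY4 fell, by 0.19 to 0.24. Of 12 EGF-family ligands and receptors ERRFI1, an EGF receptor inhibitor, ERBB3 and ERBB2 rose by 0.38, 0.20 and 0.12, and the ligand AREG fell by 0.29. Of 5 metallothionein and zinc export genes MT1X, MT1F and MT2A rose by 0.68, 0.39 and 0.24; the metallothioneins are close copies that can share reads. Of 8 aryl hydrocarbon receptor targets CYP1A1 and ALDH3A1 fell by 0.54 and 0.28. Of 9 luminal markers STEAP2 and TMPRSS2 rose by 0.37 and 0.33, but 5 of the 9 changes were negative, the median was -0.12, and with the block 2 rose and 2 fell. Of 3 leukocyte markers tested none passed, and of 5 fibroblast and endothelial markers KDR rose by 0.47 and COL3A1 fell by 0.55.

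More matrix genes fell than rose. Of 34 genes of the extracellular matrix and epithelial-mesenchymal transition 13 fell and 5 rose, and with the block 13 fell and 9 rose. SPARC, a collagen-binding matrix protein (chromosome 5, 151661096 to 151687165, minus strand), was at 51.6 ± 7.47 CPM (SD, n = 6) in DMSO, 20.9 to 40.2 CPM (median 29.3) at 1500 nM and 15.9 to 21.5 CPM (median 17.0) at 3750 nM. It fell by 0.75 ± 0.13 (adjusted p = 7.05e-05), with overlap between the doses. CTGF, a YAP target, and the collagen COL12A1 fell by 0.52 and 0.49, and TGFBI, at or under 1.32 CPM, fell by 0.70. The protease MMP14 and the integrin and laminin chains ITGB4, LAMA4 and LAMB3 rose by 0.39, 0.31, 0.37 and 0.19. COL2A1, a cartilage collagen outside the list (chromosome 12, 47972965 to 48004554, minus strand), was at 9.15 to 13.9 CPM (median 12.7) and 5.51 to 10.9 CPM (median 6.95), with overlap, and fell by 0.66.

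Other leading genes belonged to no list. S100P, a calcium-binding protein (chromosome 4, 6693069 to 6697170, plus strand), was at 6 ± 0.736 CPM (SD, n = 6) in DMSO, 6.73 to 8.81 CPM (median 7.85) at 1500 nM and 20.1 to 26.9 CPM (median 21.8) at 3750 nM, with no overlap. It rose by 1.54 ± 0.09 (adjusted p = 1.84e-13), by 1.59 in Rep 1 and 1.5 in Rep 2. PI3, the elastase inhibitor elafin (chromosome 20, 45174876 to 45176544, plus strand), was at 91.1 to 141 CPM (median 118) and 213 to 285 CPM (median 247) and rose by 1.07 ± 0.18. DHRS2, a mitochondrial reductase (chromosome 14, 23630115 to 23645639, plus strand), was at 7.75 ± 0.942 CPM (SD, n = 6) in DMSO, 4.66 to 6.02 CPM (median 5.10) at 1500 nM and 1.87 to 3.04 CPM (median 2.57) at 3750 nM, without overlap between the doses. DHRS2 fell by 1.04 ± 0.10 between the doses (adjusted p = 3.4e-09).

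PPP1R1B, the phosphatase inhibitor DARPP-32 (chromosome 17, 39626740 to 39636626, plus strand), had the same order, at 15.8 ± 2.05 CPM (SD, n = 6) in DMSO, 7.21 to 9.91 CPM (median 8.54) at 1500 nM and 3.17 to 4.82 CPM (median 4.32) at 3750 nM, and fell by 1.03 ± 0.10. ID3, an inhibitor of basic helix-loop-helix factors induced by BMP signals (chromosome 1, 23557918 to 23559794, minus strand), was at 29.1 to 38.3 CPM (median 32.0) and 19.4 to 22.7 CPM (median 20.7) and fell by 0.66 ± 0.06 (adjusted p = 8.33e-10). SHISA2, a membrane protein that retains FGF and Wnt receptors, fell by 0.64, and the keratin KRT4 by 0.84 with overlapping libraries. The doses did not overlap for DHRS2, PPP1R1B, ID3 and SHISA2.

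The Reps were then taken apart. Rep 1 alone called 2981 genes and Rep 2 alone 3135, and 1839 were called in both in the same direction, which is 61.7% of the Rep 1 calls and 58.7% of the Rep 2 calls; 1 was called in opposite directions. Of the Rep 1 calls 97.2% had the same sign in Rep 2, and the Pearson correlation of the log2 fold changes across 17499 genes was 0.42, a description over genes that share libraries. Without the libraries of under 0.5% mitochondrial counts, which leaves 1 library at 1500 nM in Rep 2 that is assumed to vary like the other groups, Rep 2 called 1167 genes.

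**Figure D4:**
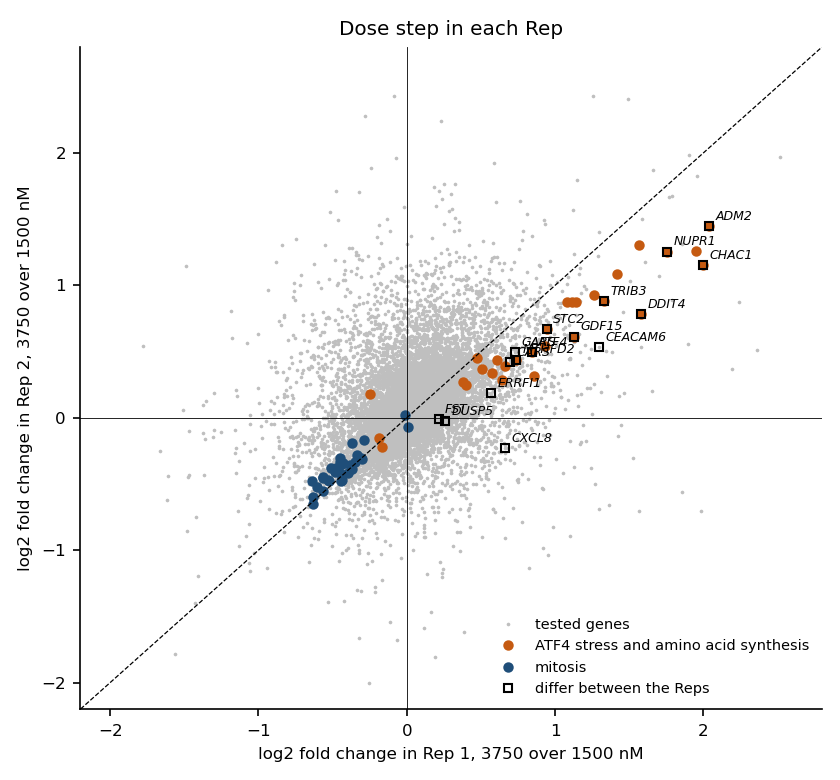
Log2 fold change of the dose step in Rep 1 (horizontal) and Rep 2 (vertical) for each tested gene, with the ATF4 list in orange, the mitosis list in blue and squares on the 16 genes whose change differed between the Reps; 5 genes lie outside the axes. The squares lie below the dashed line of equal change, and the mitosis genes lie along it.

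The size of the dose step differed between the Reps for 16 genes (0.0914% of those tested), and it was larger in Rep 1 for all 16. Of them 11 are on the ATF4, transporter or synthetase lists and 13 rose in both Reps. CHAC1 rose by 2.00 in Rep 1 and 1.15 in Rep 2, DDIT4 by 1.58 and 0.78, and CEACAM6, a cell adhesion glycoprotein, by 1.30 and 0.53. CXCL8, the chemokine interleukin-8, turned: it rose by 0.66 in Rep 1 and fell by 0.23 in Rep 2. The other genes were ADM2, ATF4, CARS, DUSP5, ERRFI1, FST, GARS, GDF15, MTHFD2, NUPR1, STC2 and TRIB3. At 1500 nM the means of the ATF4 genes among them stood higher in Rep 2. That of CHAC1 was 13.5 CPM in Rep 1 and 26.1 CPM in Rep 2, while at 3750 nM it was 54.1 and 57.9 CPM. Of the 29 tested ATF4 list genes 27 changed more in Rep 1, with medians of 0.93 and 0.54; the mitosis medians were -0.45 and -0.39. Without the libraries of under 0.5% mitochondrial counts 5 genes differed between the Reps. The part of these libraries in the Rep difference was not tested beyond that.

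The same dose step of SGI-1776 shared no library with that of the degrader and gave the 1 pair of compounds that can be compared at matched dose and time. SGI-1776-VHL-02 differs from SGI-1776, by its name, in the added part for the VHL ligase. The step from 1500 to 3750 nM SGI-1776 raised 780 genes (4.46%) and lowered 821 (4.69%). Both compounds moved 975 genes in the same direction, 29.4% of the degrader's calls and 60.9% of the inhibitor's, and 28 in opposite directions. The difference between the 2 dose steps, degrader less inhibitor, was positive for 290 genes (1.66%) and negative for 178 (1.02%). Of these 468 genes 387 (82.7%) were also called in the degrader's own step. With the block 601 were positive and 485 negative. After summing per Rep, edgeR called none without the block (623 had an unadjusted p under 0.05) and 469 with it.

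**Figure D5:**
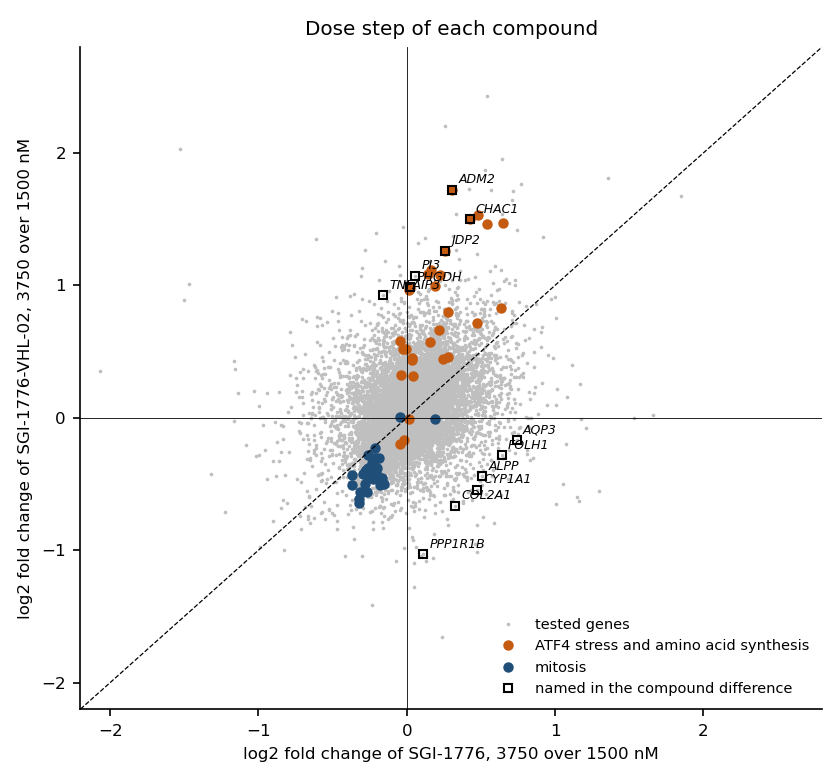
Log2 fold change from 1500 to 3750 nM of SGI-1776 (horizontal) and SGI-1776-VHL-02 (vertical) for each tested gene, with the ATF4 list in orange, the mitosis list in blue and squares on 12 genes named for the difference; 2 genes lie outside the axes. Most orange points lie far above the dashed line of equal change, and most blue points a little below it.

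Genes of the ATF4 response separated the compounds. Of 65 tested genes of the ATF4, transporter and synthetase lists 35 had a positive difference that passed (1.66% of all tested genes). The ATF4 list's median was 0.72 for the degrader and 0.16 for SGI-1776, for which 7 of 29 rose and none fell. ADM2 rose by 1.72 with the degrader, against 0.31 with SGI-1776, a difference of 1.42 ± 0.13 (adjusted p = 2.45e-08). CHAC1, JDP2 and PHGDH differed by 1.07 ± 0.22, 1.01 ± 0.15 and 0.96 ± 0.08. PHGDH had a log2 fold change of 0.02 with SGI-1776, and its mean was 162 and 164 CPM at the 2 doses of the inhibitor. TNFAIP3 and PI3 differed by 1.09 ± 0.25 and 1.02 ± 0.26.

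Genes with the opposite difference were PPP1R1B, CYP1A1, COL2A1, ALPP, FOLH1 and AQP3. PPP1R1B fell with the degrader and had a log2 fold change of 0.11 with SGI-1776, a difference of -1.14 ± 0.13 (adjusted p = 1.68e-06). CYP1A1, a detoxifying oxidase induced by the aryl hydrocarbon receptor, fell by 0.54 with the degrader and rose by 0.47 with SGI-1776. ALPP, placental alkaline phosphatase, did likewise, with -0.44 and 0.51; it has close paralogs that can share reads. For FOLH1, the prostate-specific membrane antigen, and AQP3, a water and glycerol channel, the degrader's step did not pass (-0.28 and -0.17) and SGI-1776 raised them by 0.64 and 0.74. COL2A1 differed by -0.99 ± 0.17.

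Elsewhere the compounds were closer. PIM1 rose by 0.30 with the degrader and 0.32 with SGI-1776, and the difference had a 95% interval of -0.15 to 0.10. Of the 30 mitosis genes that fell with the degrader 29 also fell with SGI-1776. All 30 had the larger fall with the degrader, with list medians of -0.43 and -0.24. The difference passed for 7 of the 32, and with the block for 14. For PLK1 it was -0.24 ± 0.05 (adjusted p = 0.00468), and for CDC20 -0.13 ± 0.05 (adjusted p = 0.22). Of 25 cholesterol genes 17 rose with SGI-1776, with a median of 0.35 beside 0.23 for the degrader. Their compound difference passed for none without the block, and with it was negative for 8. TPP1 rose by 0.58 and 0.61, with an interval of the difference of -0.18 to 0.11. S100P rose with both, by 1.54 and 0.64, and differed by 0.90 ± 0.13. The 2 compounds were given at the same nominal doses, and their uptake was not measured in these data.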

How the data were processed

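RNA of PC3 cells was sequenced in 30 libraries of 5 groups, 6 each, taken from the labels. The authors deposited 1 table of raw counts per gene for 58735 genes; per the submitters' processing notes these counts were made with featureCounts 1.5.0-p3 on GRCh38 (hg38). The aligner, the annotation and the strand setting are not given in the sources used here. Gene positions are those of the deposited table. No 2 libraries of the same SGI-1776-VHL-02 dose agreed within sampling noise; other pairs were not compared.

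Counts were tested with edgeR 4.0.16 (R 4.3.3): genes were kept by filterByExpr, scaled by TMM, fitted over all 30 libraries with the group as the only term, with two-sided tests and Benjamini-Hochberg adjusted p over 17499 genes; 20677 of the other genes had no count in any library. The Reps were tested apart, and against each other, in a model of the 10 combinations of group and Rep. Intervals are 95% intervals from the standard error. CPM values use TMM-scaled library sizes. DESeq2 1.42.0, library-size scaling, other filters, Rep as a block, summed libraries and left-out libraries were tried as alternatives. The fits were first tested on simulated data with known changes. The simulated libraries were independent and held no difference between the Reps. That simulation therefore cannot test the error rate where libraries of a Rep share a difference.

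Pairing by Rep was checked on the mean of the 3 libraries of each group and Rep. The difference Rep 2 less Rep 1 correlated across genes between every pair of groups, with r from 0.507 to 0.672. The Reps thus differed in a shared way across groups. Same-numbered libraries within a Rep were not compared. Blocked counts are given where they differ by over 1.5 times.

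Genes named were PIM1, PIM2, PIM3 and VHL, the protein-coding genes with the 10 largest rises and 10 largest falls called with and without the block and in each Rep with a mean of at least 5 CPM, up to 4 members per list and any called member of the other direction, 6 genes each way for the compound difference and 4 for the Rep difference. Further list members and genes of the closing section were picked after their values were seen. The lists and the comparison itself were chosen with earlier results of these data known. Some list members are counted but not reported here by name. Promoter sequences are RefSeq's, matched by symbol or synonym.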

Additional observations from a re-analysis of the deposited data

Results flagged for a closer look

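In a group of 6 libraries a value was looked at again where 1 library stood apart from the other 5 by Dixon's criterion, which chance meets in about 1 of 20 groups; of 48 groups of CPM values 2 met it. KIF20A reached 58.2 CPM in 1 library at 3750 nM, where the others lay at 54.8 to 56.0 CPM. SESN2 was at 29.4 CPM in 1 library at 3750 nM, where the others lay at 35.1 to 37.3 CPM. Both stayed clear of every library at 1500 nM. The total count of 1 library at 1500 nM was 48968707, where the others held 25594649 to 34304478.

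The dose step of the degrader differed from that of SGI-1776 by the test of the difference itself for 12 genes named for it. The log2 difference was 1.42 ± 0.13 for ADM2, 1.09 ± 0.25 for TNFAIP3, 1.07 ± 0.22 for CHAC1, 1.02 ± 0.26 for PI3, 1.01 ± 0.15 for JDP2 and 0.96 ± 0.08 for PHGDH. It was -1.14 ± 0.13 for PPP1R1B, -1.02 ± 0.16 for CYP1A1, -0.99 ± 0.17 for COL2A1, -0.95 ± 0.09 for ALPP, -0.92 ± 0.24 for FOLH1 and -0.91 ± 0.17 for AQP3. Each value is a log2 change with its standard error, and edgeR's adjusted p ran from 6.47e-09 for PHGDH to 0.0284 for FOLH1.

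The step also differed between the Reps, as Rep 2 less Rep 1, by -0.89 ± 0.08 for CXCL8, -0.84 ± 0.10 for CHAC1, -0.80 ± 0.12 for DDIT4 and -0.76 ± 0.15 for CEACAM6. Of these CXCL8 changed direction between the Reps.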

How the results depend on the processing

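Of 157 named dose-step values, 157 kept direction and call with Rep as a replicate block, 157 with library-size scaling and 156 with DESeq2. Without Rep 1 142 did, without Rep 2 139 and without the libraries of under 0.5% mitochondrial counts 143. Most of these genes were named only if they passed with the block and had the same sign in both Reps. The counts with the block and without a Rep were therefore partly fixed by the naming rule. Of all 3320 dose-step calls 2170 also passed without Rep 1 and 2145 without Rep 2. With the libraries summed per Rep and no block 33 kept their call, and with the block 152. PIM3 went from -0.0624 without Rep 1 to 0.000595 without Rep 2, a reversed sign. The 3320 dose-step calls became 5112 with the block (2596 higher), 5022 with the block in the 12 libraries alone (2508 higher) and 136 after summing without it (77 higher, 59 lower). Leaving out 1 library at a time gave 2818 to 3219 calls, 1374 to 1534 higher and 1420 to 1695 lower. The 468 compound differences became 1086 with the block (601 higher, 485 lower), 0 after summing without it, 229 with no filter (162 higher, 67 lower) and 269 without Rep 1 (156 higher, 113 lower) or 385 without Rep 2 (248 and 137); the lower ones were 284 with a mean of at least 5 CPM and 106 without the libraries of low mitochondrial share. The 1601 SGI-1776 calls became 3028 with the block (1444 higher, 1584 lower), 0 after summing without it (1343 with an unadjusted p under 0.05) and 907 with no filter (465 higher, 442 lower), and 510 were higher without Rep 1 and 707 without Rep 2. Rep 2 alone called 1167 genes without the libraries of low mitochondrial share (554 higher, 613 lower). The Rep difference called 25 genes with DESeq2 and 5 without those libraries. Summing leaves 2 samples a group, and leaving out libraries leaves fewer; the cause of other changes was not tested. Low counts limit the test of a gene: PRC1, counted near 1 CPM, has a standard error of 0.22, and a change of that size could not be detected there.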

Other observations

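Several gene families were counted after their values were seen, and some of their members are also on the lists above. Of all tested genes 9.23% rose and 9.74% fell. Of 19 keratins 6 rose and 2 fell, and with Rep as a block 7 rose and 5 fell. KRT16, a keratin of stressed and wound-edge epithelium, rose by 1.39 ± 0.19 from a mean of 1.23 to 3.23 CPM. KRT34, KRT37, KRT75 and KRT17 rose by 1.32, 1.23, 0.67 and 0.63. KRT34 and KRT37 were low, with means of 0.956 and 2.43 CPM and of 0.687 and 1.65 CPM at the 2 doses. KRT17 did not pass in Rep 2 alone (0.35, adjusted p = 0.217 in edgeR). The abundant KRT81, at means of 2898 and 3328 CPM, rose by 0.20. KRT16 and KRT17 have close copies that can share reads. KRT80 fell by 0.30. Of 4 ID genes, which encode inhibitors of basic helix-loop-helix factors, ID3, ID4 and ID1 fell by 0.66, 0.62 and 0.41. ID4 was low, at means of 0.597 and 0.379 CPM at the 2 doses. Its log2 fold change was -1.02 in Rep 1 and -0.23 in Rep 2, where it did not pass (adjusted p = 0.708 in edgeR). Without the libraries of under 0.5% mitochondrial counts ID4 did not pass (adjusted p = 0.068 in edgeR). The compound difference passed, and was negative, for ID1, ID2 and ID3.

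Of 20 genes picked by a symbol that starts with TUBA, TUBB or TUBG, 11 fell and 1 rose, and with the block 12 fell and 2 rose. That rule takes in genes of the gamma-tubulin complex as well as tubulins. Of 78 mitochondrial ribosomal proteins 28 fell and none rose, with a median of -0.07, and 17 fell without the libraries of under 0.5% mitochondrial counts as well as in Rep 1 alone. Of 17 mitochondrial tRNA synthetases 8 fell and none rose. Of 42 replication histone genes 5 rose and 4 fell with the degrader, shares near those of all tested genes. With SGI-1776 15 of the 42 rose and none fell, and the compound difference was negative for 5, and with the block for 9. Since the libraries were poly-A selected, these counts cover only histone transcripts with a poly-A tail and do not measure total histone RNA.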
